A study of Mus musculus with 6 samples.

Results

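The genes described are 10 long noncoding RNA genes of the mouse, chosen by symbol from the gene rows of the count table: Malat1, Neat1, Meg3, H19, Gas5, Snhg1, Snhg3, Snhg6, Snhg11 and Snhg12. All 10 had a row among the 24421 gene rows, and 9 had enough counts to be tested, of 12820 genes tested. Snhg11 was too low for a test. RNA was measured in 6 libraries of Neuro2a, a mouse neuroblastoma line labelled wild type. The cells carried an adenovirus with a control hairpin (shCtrl, n = 3) or with a hairpin against Fam172a (shFam172a, n = 3) and were taken 48 h later, so both groups had received a virus and a hairpin. Fam172a, per the title of the series, is studied there for histone lactylation in POMC neurons and energy balance. Neuro2a is a tumour line and not a POMC neuron. The labels do not say whether the replicates were separate infections, so the p-values measure the spread between these libraries, which may be technical.

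Long noncoding RNAs of these kinds are not translated into a protein of known function, and several act or mature inside the nucleus. Malat1 is an abundant nuclear transcript that collects in speckles, where splicing factors are stored, and Neat1 is the RNA scaffold of paraspeckles, bodies that hold RNA-binding proteins such as Sfpq and Nono. Meg3 and H19 are imprinted genes, each expressed from the maternal copy. Gas5 and the Snhg genes host small nucleolar RNAs (snoRNAs) in their introns: splicing releases the snoRNA, which guides chemical modification of ribosomal and other RNAs, while the spliced host RNA is exported and in several cases removed by nonsense-mediated decay during translation.

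The gene counts summed to 11250312 to 12820531 per shCtrl library and to 21690467 to 23409319 per shFam172a library, so low genes were measured less precisely in shCtrl. Fam172a itself was at 18.6, 19.3 and 19.5 CPM (counts scaled to library depth by TMM) in shCtrl and at 9.22, 8.28 and 9.22 in shFam172a, lower in every library labelled with its hairpin. Read pairs in no gene were 16.4% to 16.6% of all rows in shCtrl and 17.2% to 17.9% in shFam172a. Pairs at too low alignment quality were 4.83%, 5.14% and 5.83% in shCtrl and 6.65%, 7.12% and 4.46% in shFam172a. The third shFam172a library thus lay below every shCtrl library, and the other shFam172a libraries lay above every shCtrl library. The Rn45s row, a ribosomal RNA precursor, averaged 492 CPM in shCtrl and 985 CPM in shFam172a. The part of these differences in the results was not tested. Summed neuroblastoma markers were 2878 to 2922 CPM in shCtrl and 2940 to 2994 CPM in shFam172a, and Ptprc, Cx3cr1 and Itgam (macrophages), Aqp4 (astrocytes) and Olig2 (oligodendrocytes) were at 0 in every library. Of the 15 neuroblastoma markers 12 were tested, of which 6 were higher and 2 lower. Summed fibroblast markers were 6.38 to 6.85 and 4.77 to 6.22 CPM in the respective groups, and none of 3 tested was called. Summed endothelial and epithelial markers were 14.6 to 15 CPM and 15.2 to 16.7 CPM, and summed macrophage markers 0.623 to 1.46 and 1.34 to 1.48 CPM. Of 8 macrophage markers 1 was tested, Cd68, and it was called higher (adjusted p 0.048 in edgeR). Summed astrocyte and oligodendrocyte markers were 26.9 to 29.1 CPM and 28.2 to 33.4 CPM. The part of these other cell types in the results was not tested.

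With the Fam172a hairpin, Neat1 and Meg3 rose, Snhg1 and Snhg6 fell, and Malat1, H19, Gas5, Snhg3 and Snhg12 did not pass the test (edgeR's quasi-likelihood test, Benjamini-Hochberg adjusted p under 0.05 over all genes tested). Thus 4 of 9 tested members were called, or 44.4%, where 36.1% of all genes tested were called. The share called higher over all genes was 17.5% and the share called lower 18.6%. The member counts are close to that background. Groups did not overlap in CPM for 6 members, 3 higher and 3 lower, against 46.0% of all genes tested. The median log2 fold change, shFam172a over shCtrl throughout, was -0.083 over the tested members and -0.00030 over all genes. Because these are bulk libraries, fewer cells that express a gene and less RNA per cell cannot be told apart.

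**Figure D1:**
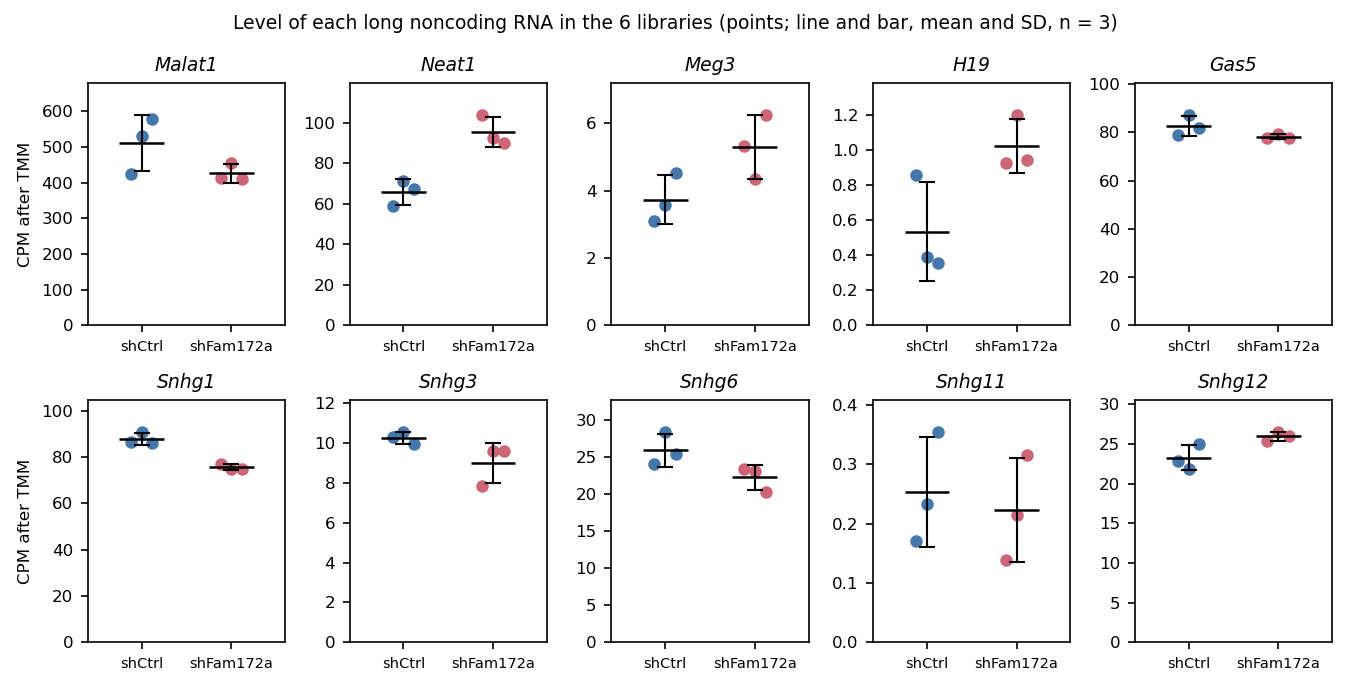
Level of each of the 10 members in each library, in CPM after TMM scaling on an axis of its own per gene, with libraries as points and the group mean and SD (n = 3) as a line and a bar. Neat1 is higher in every shFam172a library (90.2 to 104 CPM) than in any shCtrl library (58.7 to 71.3 CPM), and Snhg1 is lower in every shFam172a library.

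Levels between genes were compared only per length, as CPM per kilobase of merged exons in GENCODE vM21. The annotation used for counting was not given, so these lengths may differ from the bases counted. In shCtrl, Malat1 was the highest member at 73.3 ± 11.3 (SD, n = 3). Snhg1 followed at 29.5 ± 0.907, Snhg6 at 22.6 ± 1.94, Gas5 at 22 ± 1.13, Snhg3 at 10.4 ± 0.304, Snhg12 at 9.68 ± 0.657, and Neat1 at 3.17 ± 0.309. H19, Meg3 and Snhg11 were far lower, at 0.217 ± 0.114, 0.206 ± 0.040 and 0.0297 ± 0.011. The neighbours Snhg6 and Gas5, Snhg3 and Snhg12, and H19 and Meg3 overlapped between shCtrl libraries in this order. In shFam172a, Snhg12 at 10.8 ± 0.242 stood above Snhg3 at 9.12 ± 1.02, and Gas5 at 20.8 ± 0.294 above Snhg6 at 19.4 ± 1.46, both with no overlap. H19 at 0.416 ± 0.062 and Meg3 at 0.293 ± 0.053 no longer overlapped either.

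Merged exons of the host genes include models that keep introns, and the choice of length changes the order. Divided instead by the transcript model with the most exons, the shCtrl means were 165 for Gas5, 145 for Snhg1, 54.8 for Snhg6, 38.4 for Snhg12 and 30.9 for Snhg3. Malat1 and Neat1 kept their full length and their values, so Gas5 and Snhg1 then lay above Malat1. Meg3 became 1.97 and H19 became 0.233 by the same division.

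Neat1, the paraspeckle scaffold, showed the smallest adjusted p of the 9 tested members. The gene lies on chr19:5824708-5845478, minus strand (GRCm38), as 1 merged exon of 20771 bases in GENCODE, annotated as a long intergenic noncoding RNA. Its level was 58.7, 71.3 and 67.4 CPM in the shCtrl libraries and 104, 92.7 and 90.2 CPM in the shFam172a libraries. All 3 shFam172a libraries lay above all 3 shCtrl libraries. The means were 65.8 ± 6.43 and 95.7 ± 7.38 CPM (SD, n = 3 each), a 1.45-fold rise with a log2 fold change of 0.54 ± 0.061 (SE) and an adjusted p of 7.3e-07 in edgeR. Without the third shFam172a library the log2 fold change was 0.58. The short and the long Neat1 transcript share their start, and the count table does not separate them. The annotation used for counting was not given, so whether the row covers all of the long transcript is not known. With an offset for gene length and GC content together with a replicate block, the log2 fold change was 0.43 and the adjusted p was 0.088.

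Malat1, the speckle-associated transcript, lies on chr19:5795690-5802672, minus strand, 22036 bases from Neat1, and is 6983 bases long in its longest model. It had 4954, 6821 and 6538 counts in shCtrl and 8898, 10641 and 9109 in shFam172a. Its level was 425, 531 and 579 CPM in shCtrl and 412, 456 and 409 CPM in shFam172a. The first shCtrl library was the lowest of its group and fell within the range of the shFam172a libraries, so the groups overlapped. The mean was 512 ± 79.1 CPM in shCtrl and 426 ± 26.3 CPM in shFam172a (n = 3 each), a log2 fold change of -0.26 ± 0.13 with an adjusted p of 0.22 in edgeR. Without the first shCtrl library the log2 fold change was -0.38 and the adjusted p was 1.4e-06. That single library thus decides whether Malat1 was called.

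The pair of neighbouring nuclear genes was also read as a ratio within each library, which needs no scaling factor. This ratio and the other ratios below, 3 in all, were chosen after values had been seen. There were 13.8, 13.4 and 11.6 Neat1 pairs per 100 Malat1 pairs in shCtrl and 25.2, 20.3 and 22 in shFam172a. The groups did not overlap, with means of 13.0 ± 1.16 and 22.5 ± 2.50 (n = 3 each), and the two-sided exact permutation p was 0.1, the smallest that 3 against 3 libraries allow. The ratio restates the values above and adds no test that could pass. The first shCtrl library, which was low in Malat1, was also the lowest in Neat1.

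Frmd8, a neighbour of Neat1 that passed the count filter, was not called. Likeness was read as Pearson's r of log2 CPM over the 6 libraries, among 9399 genes of at least 10 mean CPM. The genes that most resembled Malat1 were Mrps36 (0.987), Rprd1b (0.979) and Gpn1 (0.978). For Neat1 they were Rundc1 (0.994), Pcyt1b (0.992) and Klhl28 (0.992). These r values describe 6 libraries in 2 groups that differ in treatment and depth.

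Genes for proteins of the bodies in which Neat1 and Malat1 are found were called in both directions. Of 17 tested paraspeckle protein genes, 5 rose, 3 fell and 9 were not called, or 47.1% called against 36.1% of all genes. Without the first shCtrl library 5 were called lower. Their median log2 fold change was 0.07, against -0.00030 over all genes. Sfpq, a protein that paraspeckles need, was 329 to 341 CPM in shCtrl and 377 to 386 CPM in shFam172a (log2 fold change 0.18 ± 0.028, adjusted p 4.2e-06 in edgeR). Cpsf6, a subunit of a cleavage and polyadenylation factor, rose by 0.14 on the log2 scale, Ewsr1 rose by 0.12, and Dazap1 fell by 0.14. Also called, and named after their values were seen, were Smarca4 and Nono, which rose by 0.10 and 0.07, and Matr3, which fell by 0.09.

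Of 14 tested nuclear speckle and Malat1 end-processing genes, 4 rose, 5 fell and 5 were not called, or 64.3% called against 36.1% of all genes. Without the second shCtrl library 2 were called higher. The median over the list was -0.06 on the log2 scale. Every called change of this list was smaller than 0.22, the median absolute log2 fold change of all called genes. The shares called were not matched for count level. Son, a core speckle protein, rose by 0.16 on the log2 scale. The splicing factors Srsf2, Srsf7 and Srsf3 fell by 0.17, 0.17 and 0.14. The others called, named after their values were seen, were Pnn, Acin1 and Prpf4b, which rose by 0.16, 0.10 and 0.10, and Srsf1 and Srrm1, which both fell by 0.11.

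**Figure D2:**
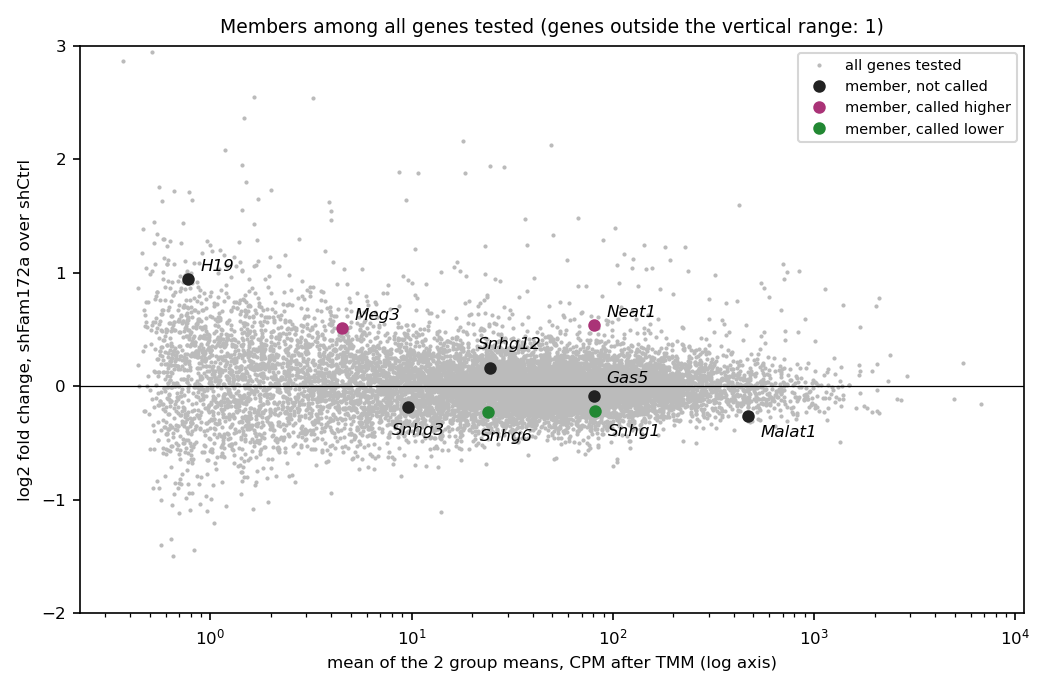
Log2 fold change (shFam172a over shCtrl) against the mean of both group means (CPM, log axis) for the genes tested, with the 9 tested members labelled and coloured by call. Neat1 lies at 0.54 and Meg3 at 0.51, whereas the 5 host genes lie between -0.22 and 0.16.

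Of the imprinted members, Meg3 is expressed from the maternal copy of the Dlk1-Meg3 region and is at chr12:109541001-109571726, plus strand. It was a low gene here, with 36, 46 and 51 counts in shCtrl and 115, 101 and 139 in shFam172a. Its level was 3.09, 3.58 and 4.52 CPM in shCtrl and 5.33, 4.33 and 6.25 CPM in shFam172a. The second shFam172a library lay below the third shCtrl library, so the groups overlapped. The means were 3.73 ± 0.727 and 5.30 ± 0.959 CPM, a log2 fold change of 0.51 ± 0.17 with an adjusted p of 0.019 in edgeR. This call was lost with DESeq2 (adjusted p 0.065), and without the third shFam172a library the log2 fold change was 0.37 with an adjusted p of 0.11. It was also lost, at an adjusted p of 0.11, without the first shCtrl library and, at 0.079, without the second. With the length and GC offset the log2 fold change was 0.40 and the adjusted p 0.064, or 0.053 with a replicate block as well.

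H19, the maternally expressed RNA beside Igf2, is at chr7:142575529-142578143, minus strand, and was near the detection limit. It had 10, 5 and 4 counts in shCtrl and 20, 28 and 21 counts in shFam172a. That was 0.86, 0.39 and 0.35 CPM against 0.93, 1.2 and 0.94 CPM, and the groups did not overlap, although the first shCtrl library came close. The log2 fold change was 0.94 ± 0.40 with an adjusted p of 0.059 in edgeR, so H19 was not called. H19 passed the count filter through the shFam172a libraries. Without the first shCtrl library the log2 fold change was 1.45 and the adjusted p 0.024, and with the shFam172a libraries thinned to the shCtrl depth they were 1.11 and 0.034. The microRNA rows inside H19 and Meg3, Mir675, Mir770 and Mir1906-1, had 0 counts in all 6 libraries, which allows each up to 0.0291 CPM over the pooled libraries (3 counts).

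Other imprinted genes, a list with Meg3's and H19's neighbours in it, were tested in 11 cases, of which 5 rose, none fell and 6 were not called. That is 45.5% called, against 36.1% of all genes, of which 17.5% were higher and 18.6% lower. Over these genes the median log2 fold change was 0.26. Peg10, a gene derived from a retrotransposon, was 428 to 444 CPM in shCtrl and 739 to 762 CPM in shFam172a (log2 fold change 0.79 ± 0.027, adjusted p 4.3e-24 in edgeR). Its neighbour Sgce rose by 0.33 on the log2 scale, Peg3 rose by 0.21, and Nnat, named after its value was seen, rose by 0.47. Rian, a maternally expressed noncoding RNA of the Meg3 region, was 9.77, 10.0 and 7.62 CPM in shCtrl and 12, 12.8 and 11.3 CPM in shFam172a. Rian thus rose, by 0.39 ± 0.11 on the log2 scale, with an adjusted p of 0.0044 in edgeR. Mirg, a low noncoding RNA of the same list, named after its value was seen, was not called. Its log2 fold change was -0.25 ± 0.39, with an adjusted p of 0.65 in edgeR.

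The partners of Meg3 and H19 that are expressed from the paternal copy did not pass the test. Dlk1, a Notch-family ligand gene, had a log2 fold change of 0.26 with an adjusted p of 0.089, and Igf2, a growth factor gene, had 1.0 with an adjusted p of 0.098. Igf2 averaged 0.377 CPM in shCtrl and 0.790 CPM in shFam172a. It had only 1, 10 and 3 counts in shCtrl and 18, 18 and 17 in shFam172a, and the groups overlapped in CPM. Like H19, Igf2 passed the count filter through the shFam172a libraries. Rtl1, on the opposite strand in the Meg3 region, was not called either.

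Of 15 other long noncoding RNAs tested, 5 rose, none fell and 10 were not called. The 33.3% called is near the 36.1% of all genes. Their median log2 fold change was 0.17. Kcnq1ot1, the antisense RNA of an imprinted region, was 14.1 to 15.9 CPM in shCtrl and 19.5 to 22.8 CPM in shFam172a (log2 fold change 0.48 ± 0.084, adjusted p 1.5e-05 in edgeR). Xist, the RNA of X inactivation, rose by 0.13, 2900097C17Rik rose by 0.17, and Mir17hg, the host of a microRNA cluster, named after its value was seen, rose by 0.31. Rian and Mirg are on this list as well, so these 2 lists are not separate.

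The snoRNA hosts carry features that can be read in sequence. RefSeq places 25 snoRNAs in the 6 host members: 8 in Gas5, 8 in Snhg1, 4 in Snhg12, 2 in Snhg3, 2 in Snhg11 and 1 in Snhg6. Every one of them lies in an intron of the model with the most exons. Box C/D snoRNAs are held by proteins that bind a C box near the 5′ end and a D box near the 3′ end. A C box, TGATGA, in the first 20 bases and a D box, CTGA, in the last 15 bases were found together in 68.7% of the 99 Snord transcripts in GENCODE (GRCm38). The 4 Snord transcripts below are those in the hosts with a row of their own in the count table, with the boxes in capitals. In Snord22, hosted by Snhg1, the D box was found but no C box.
Snord47, in Gas5: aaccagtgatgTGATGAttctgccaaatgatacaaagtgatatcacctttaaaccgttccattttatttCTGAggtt
Snord22, in Snhg1: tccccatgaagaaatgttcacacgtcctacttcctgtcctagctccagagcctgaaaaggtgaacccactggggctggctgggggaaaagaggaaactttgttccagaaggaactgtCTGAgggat
Snord87, in Snhg6: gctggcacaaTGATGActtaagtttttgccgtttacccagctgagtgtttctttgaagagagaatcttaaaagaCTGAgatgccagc
Snord99, in Snhg12: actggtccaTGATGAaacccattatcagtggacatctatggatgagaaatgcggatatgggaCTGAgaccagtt

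**Figure D3:**
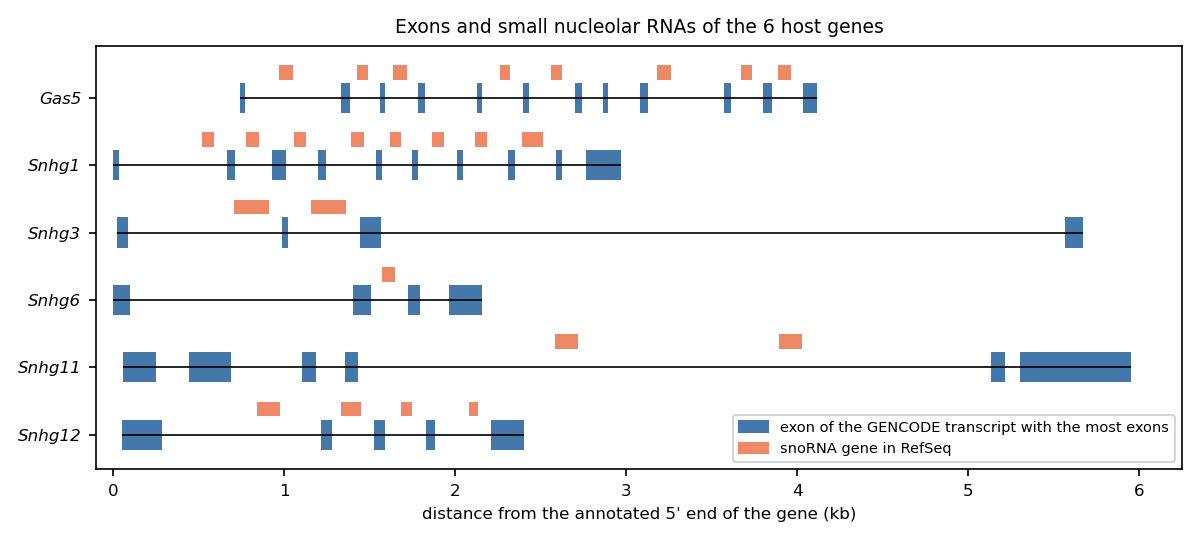
Models of the 6 host members drawn to scale from their own start, with exons of the transcript with the most exons as blue boxes and RefSeq snoRNAs as orange bars above them, against the distance from the annotated 5′ end in kilobases. Each snoRNA falls between exons, with 8 in Gas5 and 8 in Snhg1.

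Snhg1 had the smallest adjusted p of the 5 tested host members. It is at chr19:8723475-8726443, plus strand. Its level was 86.4, 90.8 and 85.9 CPM in shCtrl and 77.0, 74.8 and 74.7 CPM in shFam172a. Every shFam172a library lay below every shCtrl library, and both groups were tight. The means were 87.7 ± 2.69 and 75.5 ± 1.31 CPM (n = 3 each), a log2 fold change of -0.22 ± 0.042 with an adjusted p of 6.2e-05 in edgeR. The fall, to 86.1% of the control mean, was called under all 16 alternative settings, with log2 fold changes from -0.23 to -0.16.

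Slc3a2, which encodes the heavy chain of amino acid transporters at the cell surface, starts 106 bases from Snhg1 on the opposite strand, and it fell as well. It was at 452, 438 and 442 CPM in shCtrl and at 373, 385 and 358 CPM in shFam172a, again with no overlap. Its log2 fold change was -0.25 ± 0.029 with an adjusted p of 7.0e-09 in edgeR. The stretch before Snhg1 is shown because it holds the bases between this pair of genes that both fell. It begins further than 106 bases before Snhg1, so its first part, with the first marked match, lies within Slc3a2. The stretch runs from 250 bases before the RefSeq start of Snhg1 to 50 after it (chr19:8723237-8723536, GRCm38.p6, plus strand). Capitals mark ACGTG or GCGTG on either strand, the core letters of the hypoxia response element.
Snhg1 promoter: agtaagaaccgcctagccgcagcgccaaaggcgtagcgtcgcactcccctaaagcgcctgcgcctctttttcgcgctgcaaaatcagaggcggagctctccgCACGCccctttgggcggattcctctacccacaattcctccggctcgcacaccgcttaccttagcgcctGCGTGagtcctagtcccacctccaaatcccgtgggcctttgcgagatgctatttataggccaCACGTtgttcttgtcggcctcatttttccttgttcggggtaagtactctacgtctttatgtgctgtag

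The promoter windows of 300 bases in RefSeq covered 7 members, in 9 windows. ACGTG or GCGTG was searched on both strands, where a CACGTG counts for both strands, and was found in at least 1 window of 5 of these members. All 32851 promoter windows of that length held either motif in 43.8% of cases, ACGTG in 19.6% and GCGTG in 32.4%. These shares are per window and the member count takes any window of a gene, so they are not like for like. Snhg1 had 3 matches, Snhg3, Gas5 and Snhg11 had 2 each, and Malat1 had 1. The Meg3 and Snhg12 windows held none. A match is a description of letters and says nothing about binding in these cells.

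Host genes are also known to start at a pyrimidine tract, a feature shared with ribosomal protein genes and read by the translation machinery. A run of at least 5 C or T letters that starts with C within 10 bases of the start was found in 4 of the 7 members with a window. Meg3, which is not a snoRNA host, is among them. Of all promoter windows 30.7% held such a run. That share is per window and the member count takes any window of a gene, so they are not like for like. The stretches below run from 20 bases before the RefSeq start to 30 after it, with the tract in capitals for 4 tested hosts with a window. Gas5 has 2 RefSeq starts, of which the first had no tract and the second is shown.
Gas5: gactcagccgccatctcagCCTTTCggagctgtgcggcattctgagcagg
Snhg12: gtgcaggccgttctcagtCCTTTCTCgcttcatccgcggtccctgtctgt
Snhg3: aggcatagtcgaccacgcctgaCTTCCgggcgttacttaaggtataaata
Snhg1: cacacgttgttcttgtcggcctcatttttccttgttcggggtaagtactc
By this definition Gas5 had 6 letters, Snhg12 had 8 and Snhg3 had 5, and these 3 hosts were not called. Snhg1, which fell, had no tract by this definition. It is the only host member that fell and has a window, so nothing can be read from this about hosts that fell.

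Snhg6, which hosts Snord87, was the other host that fell. It is at chr1:9941959-9944118, minus strand. Its level was 24.0, 28.4 and 25.3 CPM in shCtrl and 23.4, 23.1 and 20.3 CPM in shFam172a. The groups did not overlap, though the first shCtrl library lay just above the first shFam172a library. The means were 25.9 ± 2.23 and 22.2 ± 1.68 CPM, a log2 fold change of -0.22 ± 0.075 with an adjusted p of 0.018 in edgeR. The call was lost without the third shFam172a library (-0.16, adjusted p 0.10), without the second shCtrl library (-0.15, adjusted p 0.21) and with DESeq2 (adjusted p 0.068). Snhg6 shares 127 exon bases with Mcmdc2 on the opposite strand, and without a known strand setting their reads cannot be told apart there, but Mcmdc2 had only 0 to 2 counts per library.

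Gas5 is a growth-arrest transcript at chr1:161034422-161038539, plus strand. Its level was 79.1, 87.4 and 81.9 CPM in shCtrl and 77.6, 79.5 and 77.6 CPM in shFam172a. The second shFam172a library lay above the first shCtrl library, so the groups overlapped. The log2 fold change was -0.083 ± 0.043 with an adjusted p of 0.14 in edgeR, and Gas5 was called under none of the 16 alternative settings. Zbtb37, a zinc finger gene on the opposite strand that overlaps the span of Gas5 without sharing an exon, rose from 11.5 ± 0.593 to 16.0 ± 0.592 CPM, a log2 fold change of 0.48 ± 0.092 with an adjusted p of 5.6e-05 in edgeR.

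Snhg3 and Snhg12 lie 36990 bases apart on chromosome 4, on opposite strands, at chr4:132348014-132353686 and chr4:132308623-132311024. Snhg3 was 10.3, 10.5 and 9.92 CPM in shCtrl and 7.83, 9.56 and 9.58 CPM in shFam172a. All shFam172a libraries were lower, but the first of them lay far below the other two, and the log2 fold change of -0.19 ± 0.11 had an adjusted p of 0.20 in edgeR. Snhg3 shares 135 exon bases with Rcc1 on the same strand, so their reads cannot be fully separated. Rcc1, a regulator of the nuclear transport GTPase Ran, fell from 99.9 ± 1.5 to 86.3 ± 2.78 CPM (log2 fold change -0.21 ± 0.040, adjusted p 5.1e-05 in edgeR).

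Snhg12 had the opposite sign. It was 22.9, 21.9 and 25 CPM in shCtrl and 25.4, 26.5 and 26.0 CPM in shFam172a, with no overlap, and the third shCtrl library was close to the shFam172a range. The log2 fold change was 0.16 ± 0.070 with an adjusted p of 0.067 in edgeR, so it was not called. It was called with upper-quartile scaling (adjusted p 0.045), with the length and GC offset (0.031, or 0.029 with a replicate block) and without the third shCtrl library (0.035). Taf12, a gene of the general transcription machinery 12857 bases from Snhg12, fell by 0.20 on the log2 scale with an adjusted p of 0.040 in edgeR. Its groups overlapped, at 27.4, 25.3 and 33.3 CPM in shCtrl and 26.3, 25.3 and 23.1 CPM in shFam172a.

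Snhg12 and Gas5 were also set against Snhg1 within each library. Snhg12 pairs per 100 Snhg1 pairs were 26.5, 24.1 and 29.1 in shCtrl and 32.9, 35.4 and 34.8 in shFam172a. Gas5 pairs per 100 Snhg1 pairs were 91.5, 96.2 and 95.3 in shCtrl and 101, 106 and 104 in shFam172a. Neither ratio overlapped between the groups, and each had the exact permutation p of 0.1 that is the smallest possible. They restate the values of these hosts, and no conclusion is drawn from them.

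Snhg11, a neuronal host gene that GENCODE vM21 annotates as protein coding, at chr2:158375638-158386145, had 2, 3 and 4 counts in shCtrl and 3, 5 and 7 in shFam172a. That is 0.17, 0.23 and 0.35 CPM against 0.14, 0.21 and 0.31 CPM. The groups overlapped almost entirely, and a difference was not detectable at this depth.

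Summed over the 6 host members, the level was 230 ± 8.33 CPM in shCtrl, and in shFam172a it was 211 ± 2.54 CPM. Of 9 other snoRNA host genes tested, none rose, 2 fell and 7 were not called, or 22.2% called against 36.1% of all genes. With DESeq2, with the shFam172a libraries thinned to the shCtrl depth, or without the second or the third shCtrl library, 1 was called lower. Without the first shCtrl library 3 were called lower. The median over the list was -0.15 on the log2 scale. Snhg5 fell from 96.3 to 101 CPM in shCtrl libraries to 87.6 to 90.9 CPM in shFam172a libraries (log2 fold change -0.16 ± 0.039, adjusted p 0.0017 in edgeR). Snhg14, the long host transcript of the imprinted Prader-Willi region, fell by 0.16 with an adjusted p of 0.020.

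The remaining hosts that did not pass had log2 fold changes of -0.22 for Snhg10, -0.16 for Snhg8, -0.15 for Dancr, -0.03 for Snhg17, 0.04 for Snhg4, 0.10 for Snhg20 and 0.12 for Snhg7. Counting members and others, 4 of 14 tested hosts fell and none rose, or 28.6% lower against 18.6% of all genes. In either direction 28.6% of the hosts were called, against 36.1% of all genes. The log2 fold change was below 0 in 10 of the 14, or 71.4%, against 50.1% of all genes tested.

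**Figure D4:**
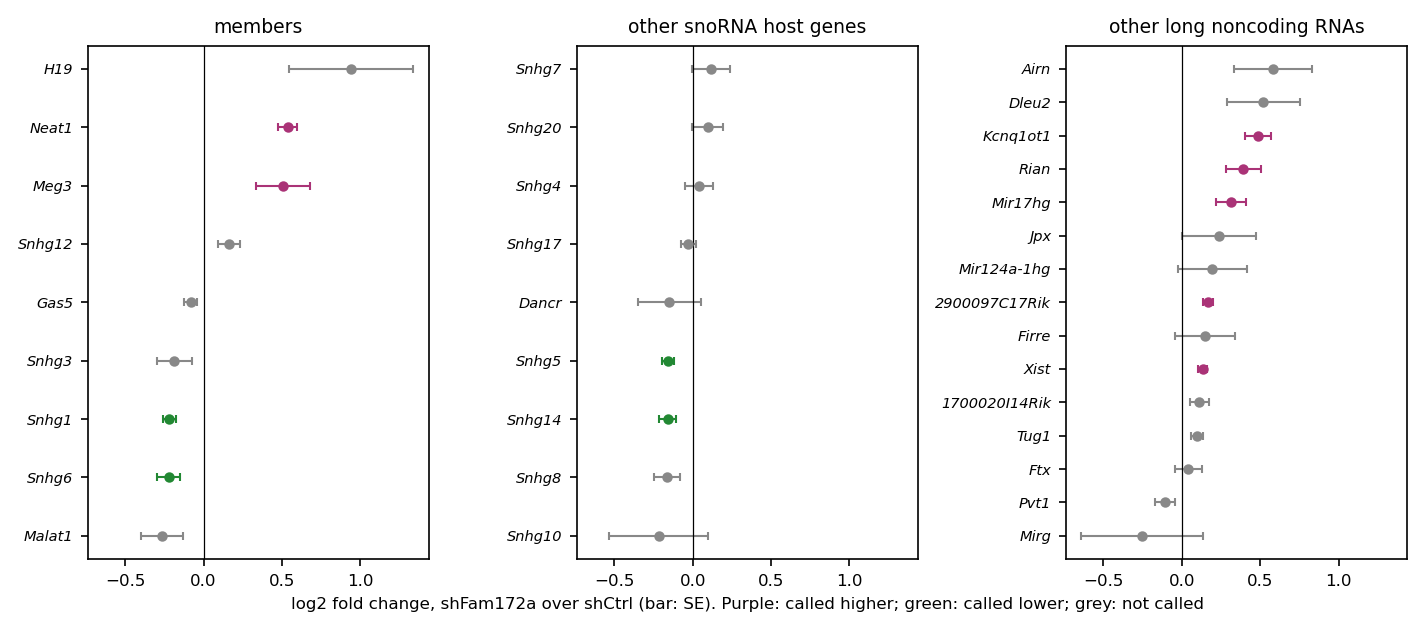
Log2 fold change (shFam172a over shCtrl) with its SE for the 9 tested members, 9 other snoRNA hosts and 15 other long noncoding RNAs, with called genes in purple (higher) or green (lower) and the rest in grey. Among the snoRNA hosts the called genes (Snhg1, Snhg6, Snhg5 and Snhg14) lie between -0.22 and -0.16, and all are below 0.

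The snoRNAs inside the hosts were followed through the rows they have in the table, which holds 7 of the 25. Their counts were low. Snord47 in Gas5, whose sequence is given above, had 4, 14 and 8 counts in shCtrl and 21, 23 and 15 in shFam172a, with a log2 fold change of 0.27 and an adjusted p of 0.62 in edgeR. Snord22 in Snhg1 had 5, 15 and 11 against 21, 29 and 23 counts, with 0.33 and 0.50. Neither differed beyond its spread, and Snord22 had a value above 0 where its host fell.

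Snora16a in Snhg12 had 23, 21 and 12 counts in shCtrl and 39, 39 and 41 in shFam172a, with a log2 fold change of 0.18 and an adjusted p of 0.63 in edgeR. Snora61, also in Snhg12, had 1, 3 and 13 against 16, 14 and 2 counts. Snord99 and Snora44, in Snhg12 too, were under the count filter and not tested. Snord99 had 4, 5 and 9 counts in shCtrl and 17, 11 and 10 in shFam172a, with overlapping CPM. Snora44 had 0, 1 and 1 against 3, 5 and 9 counts, and its CPM did not overlap between the groups. Snord87, whose sequence is given above with its host Snhg6, was not tested either, at 0, 1 and 1 against 8, 2 and 2 counts with overlapping CPM. Reads from a host transcript that keeps its intron would fall on the same bases as the snoRNA, and the counting does not separate them.

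Over all 119 snoRNA rows, 100 had a count and 30 were tested. Of those tested, 1 rose and 2 fell, or 10.0% called against 36.1% of all genes. Leaving out any of the 6 libraries took at least 1 of these counts down by 1. The summed level was 65.0 ± 3.68 CPM in shCtrl and 65.9 ± 1.13 CPM in shFam172a. Snord43 had 17, 17 and 18 counts in shCtrl and 14, 12 and 16 in the deeper shFam172a libraries, a log2 fold change of -1.21 ± 0.33 with an adjusted p of 0.0034 in edgeR. Snord64 rose by 0.54 (adjusted p 0.033), Snora7a fell by 0.72 (adjusted p 0.049), and Snord72, at -0.49, was not called (adjusted p 0.14). None of these 4 is hosted by a member.

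The proteins that bind and assemble snoRNAs were read next to their hosts. Of 18 tested genes for snoRNP proteins and their assembly factors, 9 fell, 1 rose and 8 were not called. That is 55.6% called against 36.1% of all genes, of which 18.6% were lower and 17.5% higher. Over these genes the median log2 fold change was -0.14. Here too the shares called were not matched for count level. Nop58, a core protein of box C/D snoRNPs, was 293 to 316 CPM in shCtrl and 259 to 261 CPM in shFam172a (log2 fold change -0.23 ± 0.030, adjusted p 1.5e-07 in edgeR). Nop56, also of that class, fell by 0.22, and Dkc1 and Nhp2, core proteins of the box H/ACA class, fell by 0.25 and 0.22. Ruvbl2, an ATPase of the assembly machinery and named after its value was seen, rose by 0.11. No gene of the list was called higher with DESeq2, with the length and GC offset, or without the second shCtrl or the first shFam172a library, and 2 were without the third shFam172a library.

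Factors of nonsense-mediated decay, by which several spliced host RNAs are removed, were called in both directions. Of 18 tested, 2 rose, 5 fell and 11 were not called, or 38.9% called, near the 36.1% of all genes. Without the third shCtrl library 1 was called higher. Their median log2 fold change was 0.03. Smg1, the kinase that starts the decay, was 263 to 274 CPM in shCtrl and 321 to 338 CPM in shFam172a (log2 fold change 0.30 ± 0.030, adjusted p 2.6e-10 in edgeR). The exon junction genes Eif4a3, Rbm8a and Magohb fell by 0.28, 0.25 and 0.40. Upf2 rose by 0.18, and Magoh and Smg8 fell by 0.24 and 0.17, all 3 named after their values were seen.

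Factors of the nuclear exosome, which trims snoRNAs and degrades nuclear noncoding RNA, were also called in both directions. Of 20 tested, 2 rose, 7 fell and 11 were not called, or 45% called against 36.1% of all genes. Without the second shCtrl library 3 were called lower. The median over the list was -0.09 on the log2 scale. Zfc3h1, which directs polyadenylated nuclear RNA to the exosome, rose by 0.31, and Mphosph6, an exosome cofactor, rose by 0.19. Exosc2, an exosome subunit, fell by 0.24, and Rbm7, of the exosome targeting complex, fell by 0.21. How these changes bear on the host RNAs was not tested.

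**Figure D5:**
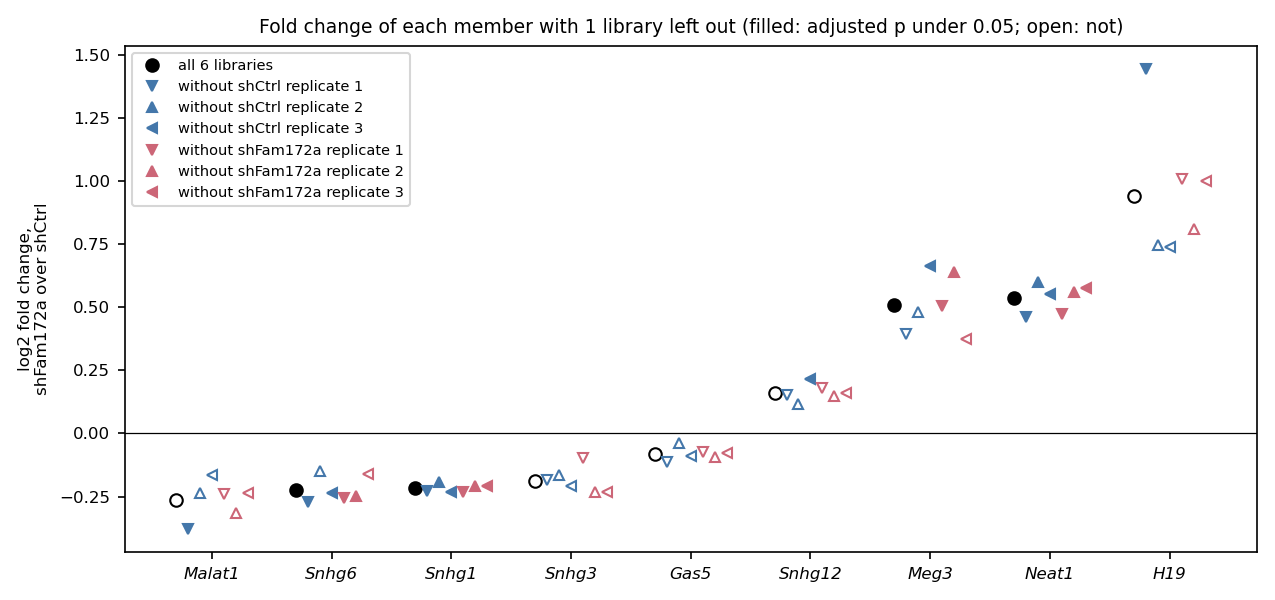
Log2 fold change (shFam172a over shCtrl) of each tested member with all 6 libraries and with each library left out in turn, with filled points where the adjusted p was under 0.05. Neat1 (0.46 to 0.60) and Snhg1 (-0.23 to -0.19) were called in all 6 leave-one-out fits, Meg3 in 3 and Snhg6 in 4, and Malat1 was called only without the first shCtrl library.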

How the data were processed

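RNA-seq of 6 Neuro2a libraries was used. The authors deposited raw read-pair counts per gene, not normalized, per the file headers; the submitters' processing notes name HISAT2 2.0.5, HTSeq and mm10. RNA selection, annotation and strand setting were not given in the sources used here. Rows that name no gene, 5 in all, were left out, with pairs in no gene at 16.4% to 17.9% of all rows. The 6 single-sample files equal the series table. Genes were filtered with filterByExpr, TMM-scaled, then tested in edgeR 4.0.16 in R 4.3.3 (robust glmQLFit, glmQLFTest, group as sole term, Benjamini-Hochberg over 12820 genes, two-sided). SE is the log2 fold change over the square root of F. The code was tested on simulated data. DESeq2 1.42.0, other scalings and filters, thinning, a length and GC offset, a replicate block and leaving out each library were alternatives. Named genes are all members, the 4 of smallest p in each list and every other snoRNA host that was tested. Called neighbours within 50 kb and the 3 genes most alike Malat1 and Neat1 are named too. Of 14 other snoRNA hosts listed, 11 had a row and 9 were tested. Symbols matched GENCODE vM21 for 23334 rows and through an older symbol for 668 of 24421. Promoters are from RefSeq GRCm38.p6. The members and lists were chosen with earlier results of these data known. Some genes of the lists and neighbourhoods are not reported here by name.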

Additional observations from a re-analysis of the deposited data

How the results depend on the processing

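Leaving out each library in turn gave 1 to 3 members called higher and 1 to 3 called lower, against 2 and 2 with all libraries. The lowest counts came without the second shCtrl or the third shFam172a library. DESeq2 called 1 member higher (Neat1) and 1 lower (Snhg1). With the length and GC offset together with a replicate block, 1 member was called higher, and it was Snhg12, while the Neat1 and Meg3 calls were lost. Same-numbered libraries did not deviate together (correlations -0.0054, -0.0038 and -0.0096), so the numbers were not taken as pairs. The replicate block alone left 2 members called higher and 2 lower, and 2150 genes higher and 2318 lower, against 2241 and 2386 without it. Neat1 kept its direction in all 16 alternatives and its call in 15, Snhg1 in 16, Snhg6 in 13 and Meg3 in 10. No alternative reversed the sign of a tested member. Over all genes, DESeq2 called 1711 higher and 1821 lower. Under the alternatives, 257 of the gene-list counts stayed within 1.5 times and 31 did not. Low counts limit H19, Meg3, Snhg11 and the snoRNA rows, and the lower depth of shCtrl adds to their error. The causes of these differences were not tested.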
